A study of Homo sapiens with 9 samples.

Results

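The heat shock chaperone genes examined here were HSPA8, HSPA1A, HSPA1B, HSP90AA1, HSP90AB1, HSPA5, HSPD1, HSPE1, DNAJB1 and HSPH1, which are 10 of the 20046 protein-coding genes of the annotation. They were taken by name, and the rule that finds their peaks uses no measured level. A peak was given to a gene when its summit, the base of highest signal, lay within 1000 bp of one of the gene's annotated transcript starts or inside the gene. The study mapped POLR2A, the catalytic subunit of RNA polymerase II, by chromatin immunoprecipitation and sequencing (ChIP-seq) with a POLR2A antibody in HEK293T cells, an established line from human embryonic kidney. The 9 samples were 3 conditions of 2 ChIP samples and 1 input each: cells with a control shRNA, whose genotype the labels give as wildtype, cells with knockdown of U2AF1, a subunit of the factor by which splicing finds the end of an intron, and cells with knockdown of DHX9, a helicase that unwinds RNA and RNA-DNA hybrids. All cells were grown in the same serum-containing medium at the usual growth temperature, and no label names a heat shock or another stress. The labels name neither the shRNA sequences nor the number of clones, and POLR2A peaks do not measure how far U2AF1 or DHX9 was lowered.

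The deposited data used here were 3 peak lists, 1 per condition, with 2757 peaks for the control, 1730 for U2AF1 knockdown and 4443 for DHX9 knockdown, named the control, U2AF1 and DHX9 lists. Each list belongs by its label to both ChIP samples of its condition. The peak names of the control list read as replicate 1, so that list may rest on 1 library or on both. The values have no replicate, and no difference between conditions could be tested. A peak listed in 1 condition and missing from another is therefore a difference between 2 lists and not a measured effect of a knockdown. The fold enrichment of a peak is the authors' ratio of signal at the summit to a local background, and it was used to rank peaks within a list. A rank percentile of 5 means that 5% of the peaks of that list ranked as high or higher. The genome-wide background recovered from the lists was 4.94 fragments per position for the control, 2.05 for U2AF1 knockdown and 1.68 for DHX9 knockdown. Of 9 genes fixed as markers of HEK293T cells, 1, 2 and 2 had a peak in the control, U2AF1 and DHX9 lists, VIM in all of them, and 7 had none in any list. Over all protein-coding genes the shares with a peak were 13.2%, 7.34% and 22.2%. None of 3 lymphocyte and 3 hepatocyte markers had a peak. Beside those shares, counts this small do not tell the cell type.

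Heat shock proteins are chaperones that hold, fold or disaggregate other proteins. HSP70 proteins bind exposed stretches of a client with the help of J-proteins, which deliver clients and stimulate the ATPase, and of exchange factors, which release ADP; HSP90 proteins act later on signalling proteins. Some members of these families are made at all times, while others are induced when the factor HSF1 binds heat shock elements, which are inverted repeats of the unit GAA. At the inducible HSP70 genes RNA polymerase II is known to pause just after the start before induction.

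The sequence before each start was searched for exact forms of the known elements. Variant forms and elements farther away were not searched for, so a gene without a match may still hold one. The sequence is printed here for HSPA8, HSPA1A, HSPA1B, HSP90AB1, HSPA5, HSPD1 and HSPE1, which were chosen by name. The 250 bases before the start are from RefSeq (GRCh38.p14), 5′ to 3′ on the strand of the gene, and all 10 genes were matched by symbol. Capitals mark 2-unit heat shock elements (GAANNTTC or TTCNNGAA), the TATA box TATAAA, the CCAAT box on either strand, and, in HSPA5, an ER stress element, which is CCAAT and CCACG with 9 bases between them. The sequences lie at chr11:123062137-123062386 (minus strand) for HSPA8, chr6:31815293-31815542 (plus) for HSPA1A, chr6:31827488-31827737 (plus) for HSPA1B, chr6:44246851-44247100 (plus) for HSP90AB1, chr9:125241344-125241593 (minus) for HSPA5, chr2:197499841-197500090 (minus) for HSPD1 and chr2:197500129-197500378 (plus) for HSPE1.
HSPA8: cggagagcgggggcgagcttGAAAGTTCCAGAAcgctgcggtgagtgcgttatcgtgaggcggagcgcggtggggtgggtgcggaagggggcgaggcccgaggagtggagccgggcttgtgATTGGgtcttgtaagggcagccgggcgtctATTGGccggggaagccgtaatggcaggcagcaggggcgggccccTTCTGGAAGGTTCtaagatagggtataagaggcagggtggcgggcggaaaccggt
HSPA1A: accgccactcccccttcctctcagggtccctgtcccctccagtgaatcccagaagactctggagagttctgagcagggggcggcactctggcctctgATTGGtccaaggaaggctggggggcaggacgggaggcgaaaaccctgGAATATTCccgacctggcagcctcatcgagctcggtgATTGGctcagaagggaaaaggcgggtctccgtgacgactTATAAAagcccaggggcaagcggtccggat
HSPA1B: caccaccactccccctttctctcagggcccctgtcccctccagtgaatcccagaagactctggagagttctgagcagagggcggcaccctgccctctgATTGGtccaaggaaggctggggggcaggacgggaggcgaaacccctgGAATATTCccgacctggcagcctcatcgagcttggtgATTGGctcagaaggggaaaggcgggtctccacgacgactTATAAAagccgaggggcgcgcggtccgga
HSP90AB1: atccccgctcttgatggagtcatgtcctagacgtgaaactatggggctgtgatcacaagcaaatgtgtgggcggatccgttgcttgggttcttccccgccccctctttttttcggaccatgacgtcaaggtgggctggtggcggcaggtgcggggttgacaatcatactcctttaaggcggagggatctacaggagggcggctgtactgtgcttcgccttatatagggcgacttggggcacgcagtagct
HSPA5: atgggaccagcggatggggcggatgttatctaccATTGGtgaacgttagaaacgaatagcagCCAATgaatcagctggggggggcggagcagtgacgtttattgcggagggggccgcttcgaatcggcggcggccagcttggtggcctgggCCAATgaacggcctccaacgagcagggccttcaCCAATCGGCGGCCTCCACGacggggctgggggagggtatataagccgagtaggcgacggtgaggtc
HSPD1: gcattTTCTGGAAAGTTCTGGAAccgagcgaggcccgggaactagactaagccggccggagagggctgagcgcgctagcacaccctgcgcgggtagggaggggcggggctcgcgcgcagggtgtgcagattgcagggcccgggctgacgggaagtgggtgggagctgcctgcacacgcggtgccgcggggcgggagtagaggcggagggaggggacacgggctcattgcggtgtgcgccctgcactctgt
HSPE1: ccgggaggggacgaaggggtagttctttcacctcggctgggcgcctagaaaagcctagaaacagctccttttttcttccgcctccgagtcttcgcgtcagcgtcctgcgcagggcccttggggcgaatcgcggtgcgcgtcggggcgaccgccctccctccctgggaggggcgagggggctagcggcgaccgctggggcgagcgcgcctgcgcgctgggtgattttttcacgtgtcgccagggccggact
HSPA8 held 2 elements of 3 alternating units, at bases -230 to -218 and -55 to -43 before the start, and HSPD1 held a run from -245 to -228. HSPA1A and HSPA1B each held 1 exact element of 2 units, at -106 to -99 and -105 to -98, and each had the exact TATA box TATAAA. HSP90AB1 and HSPE1 held none of the capitalised elements in the 250 bases printed. The run of HSPD1 lies between the canonical starts of HSPD1 and HSPE1, outside the stretch printed for HSPE1, so the shared promoter does hold it. The ER stress element of HSPA5, the class of element through which unfolded protein in the endoplasmic reticulum induces its chaperones, ran from -66 to -48.

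Over the window of 250 bases before to 50 after the start, searched on both strands, the element GAANNTTC was in 6 of the 10 genes (HSPA8, HSPA1A, HSPA1B, HSP90AA1, HSPD1 and DNAJB1) and in 6.77% of 35116 RefSeq promoters. TTCNNGAA, which can overlap it, was in 3 of the 10 (HSPA8, HSP90AA1 and HSPD1) and in 7.74% of promoters. The longer form, GAA, any 2 bases, TTC, any 2 bases, GAA, or its reverse, was in the same 3 genes and in 0.490% of promoters. TATAAA was in 2 of the 10 and in 11.5% of promoters, CCAAT in 5 of the 10 and in 34.6%, and the GC box GGGCGG in 9 of the 10 and in 45.0%. The ER stress element was in HSPA5 alone among the 10 and in 27 promoters, 0.0769% of all. The RefSeq start of HSPH1 lies 484 bp from the canonical start of the annotation used for its peaks, so its window covers another stretch than the windows of the other 9.

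The control list had a peak at 5 of the 10 genes, against 13.2% of all protein-coding genes. These were HSPA8, HSP90AA1, HSP90AB1, HSPA5 and DNAJB1, with 6 peaks in all. In the U2AF1 list 4 of the 10 had a peak, against 7.34% of all genes: HSP90AA1, HSPA5, HSPD1 and HSPE1, the last 2 through 1 shared peak. In the DHX9 list 5 of the 10 had a peak, against 22.2% of all genes, and they were the same 5 genes as in the control list. HSP90AA1 and HSPA5 thus had a peak in all 3 lists, HSPA8, HSP90AB1 and DNAJB1 in the control and DHX9 lists, HSPD1 and HSPE1 in the U2AF1 list alone, and HSPA1A, HSPA1B and HSPH1 in none. Every one of these peaks lay within 1000 bp of a start, and 0 lay only in a gene body.

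**Figure D1:**
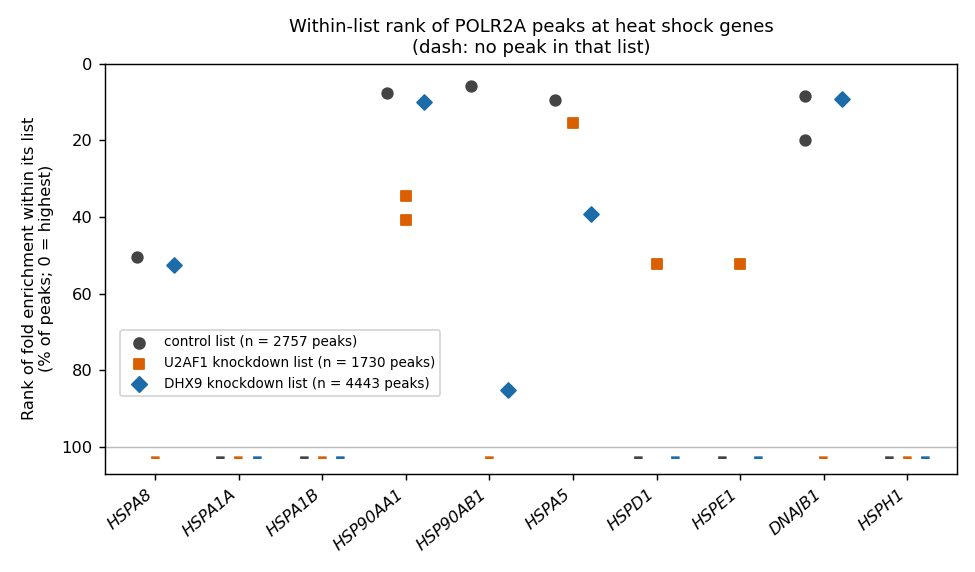
Rank percentile of the authors' fold enrichment (vertical axis, percent of the peaks of the list, highest at the top) for each peak at the 10 genes (horizontal axis); circles are the control list, squares the U2AF1 list and diamonds the DHX9 list, and a dash marks a gene with no peak in that list. Control peaks of HSP90AA1, HSP90AB1, HSPA5 and, for 1 of its 2 peaks, DNAJB1 lie in the top 10%, and the HSP90AB1 peak of the DHX9 list lies at 85.3%.

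Of the 6 control peaks at the 10 genes, 2 were overlapped by 1 bp or more in the U2AF1 list, against 34.7% of the 2205 control peaks at protein-coding genes. By the same measure 5 of the 6 were overlapped in the DHX9 list, against 73.8% of all. Of the 4 U2AF1 knockdown peaks, 2 were overlapped in the DHX9 list, against 74.5% of 1247. Overlap was more frequent at high ranks: among control peaks at protein-coding genes in the top 10% of fold enrichment, 78.7% were overlapped in the U2AF1 list and 94.8% in the DHX9 list, and from 50 to 60% of the ranks 20.7% and 66.9%. HSP90AB1 and DNAJB1 had control peaks in the top 10% and no peak in the U2AF1 list, while HSP90AA1 and HSPA5 had control peaks in the top 10% and were overlapped there. With 1 list per condition these counts were not tested.

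HSPA8 encodes HSC70, the HSP70 protein made at all times, which is needed for folding and for uncoating of clathrin vesicles. Its control peak, chr11:123061914-123062186, was 273 bp wide, with a fold enrichment of 4.12 and rank 1387, a percentile of 50.3. The DHX9 knockdown peak, chr11:123061954-123062211, was 258 bp wide, with a fold enrichment of 5.20 and rank 2336, a percentile of 52.6. The summits lay 35 and 29 bp after the nearest start, both in the first exon, and the U2AF1 list had no peak at the gene. A start of the gene ENSG00000288061 also lies within 1000 bp of both summits. Both peaks were tall on a high local background. The control peak held 64 fragments at its summit, 12.9 times the genome-wide background, over a local background of 2.95 times; the DHX9 knockdown peak held 26 fragments, 15.5 times, over 2.50 times. Ranked by height among peaks at protein-coding genes, HSPA8 stood at 10.1% in the control list and 10.4% in the DHX9 list, against 56.1% and 56.0% by fold enrichment. A height of 12.9 times the background would be 26.6 fragments in the U2AF1 list. The 55 peaks called there on a like local background had at least 18 and a median of 27. Such equivalents, here and below, take the local background from the list with the peak. The local background in the list without the peak is not known, and why a peak is missing was not tested.

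HSP90AA1 and HSP90AB1 encode the stress-inducible and the constitutive form of cytosolic HSP90, the chaperone of kinases and steroid receptors. For HSP90AA1 the control peak, chr14:102086799-102087197, was 399 bp wide, with a fold enrichment of 7.13, rank 209 (7.58%) and 62 fragments. In the U2AF1 list the peak at the same start, chr14:102086821-102087100, was 280 bp wide, with a fold enrichment of 5.09, rank 707 (40.9%) and 17 fragments. The DHX9 knockdown peak, chr14:102086744-102087506, was 763 bp wide, with a fold enrichment of 8.03, rank 442 (9.95%) and 22 fragments. It was the widest peak at any of the 10 genes, and it reached farther before the start than the other peaks of HSP90AA1. The summits lay 38, 86 and 18 bp after the start in the control, U2AF1 and DHX9 lists, the second of them past the first exon in an intron.

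Among the 870 protein-coding genes with a peak in all 3 lists, which give the lists 1 denominator, the peak at the canonical start of HSP90AA1 stood at rank 120 in the control, 507 in the U2AF1 and 264 in the DHX9 list. Its height over the genome-wide background was 12.5, 8.28 and 13.1 times. From control to U2AF1 knockdown this is a log2 difference of -0.60, where the 752 overlapped control peaks at protein-coding genes had a median of 0.00 and 4.79% of them were lower. From control to DHX9 knockdown it is 0.06, where 1612 such peaks had a median of 0.48 and 13.2% of them were lower. HSP90AA1 was thus below most other shared peaks in both comparisons, which share the control list and have no replicate. On the genome-wide background, the lowest heights called were 3.84 times in the control, 4.87 in the U2AF1 and 5.37 in the DHX9 list. Control peaks near that limit could be shared only where they were higher, while tall peaks could also be shared at a lower height. The medians over shared peaks, here and for the genes below, are therefore no measure of change for tall peaks.

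The U2AF1 list held a second peak given to HSP90AA1, chr14:102139417-102139727, 311 bp wide, with a fold enrichment of 5.32, rank 595 (34.4%), 437 among the 870 shared genes, and 17 fragments. It lay 92 bp after an upstream annotated start, at -52550 bp from the canonical start, and within 1000 bp of a start of WDR20, a gene for a WD-repeat protein that partners deubiquitinases. ChIP carries no strand, so these starts cannot be told apart. The same height would be 13.9 fragments in the DHX9 list, which had no peak there. Peaks of that list on a like local background had at least 9 and a median of 16. The control list had no peak at this upstream start either, and no equivalent was worked out for it.

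HSP90AB1 had the best rank of the 10 genes in the control list. Its control peak, chr6:44246969-44247323, was 355 bp wide, with a fold enrichment of 8.18, rank 158 (5.73%) and 78 fragments, 15.8 times the genome-wide background. Its DHX9 knockdown peak, chr6:44246998-44247209, was 212 bp wide, with a fold enrichment of 3.97, rank 3788 (85.3%) and 27 fragments, 16.1 times the background. The log2 difference of the heights was 0.03, where the 1612 shared peaks had a median of 0.48 and 11.6% of them were lower, and the local background was 1.70 times the genome-wide level in the control and 3.61 times in the DHX9 list. By height the gene stood at 5.47% of the control and 8.96% of the DHX9 list, and by fold enrichment at 4.58% and 89.9%, all among peaks at protein-coding genes. The low rank by fold enrichment in the DHX9 list thus went with a higher local background. The summits lay 63 and 37 bp after the start. The U2AF1 list had no peak at the gene and its nearest summit was 9594 bp away, at SLC35B2. The control height would be 32.4 fragments there, and the 238 U2AF1 knockdown peaks on a like local background had at least 13 and a median of 20. The local background differed between the control and DHX9 lists at this gene, and its level in the U2AF1 list is not known.

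**Figure D2:**
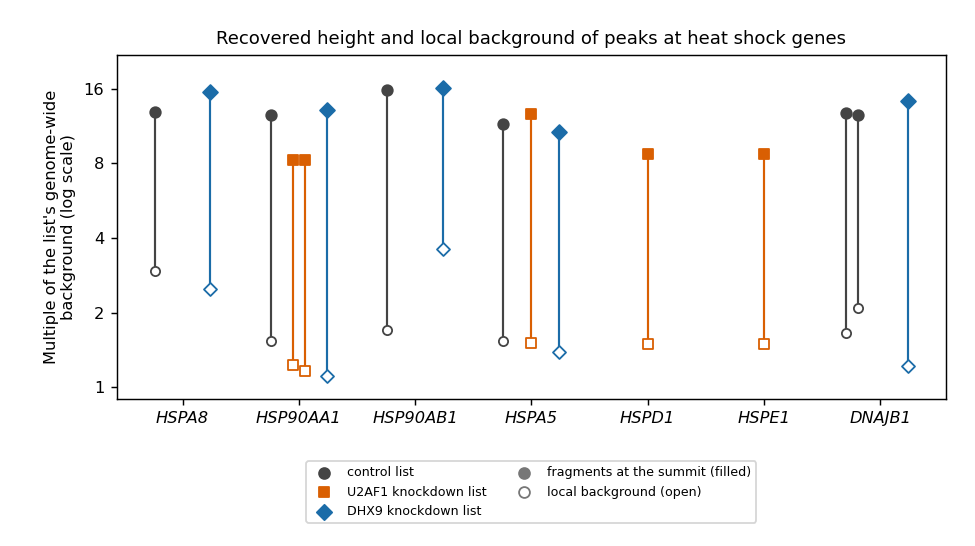
Height of each peak at the 10 genes as a multiple of the genome-wide background of its list (filled symbols) and the local background at the same place (open symbols), on a log axis, by gene and list; the line joins the values of 1 peak. The HSP90AB1 peaks stand at 15.8 and 16.1 times in the control and DHX9 lists over local backgrounds of 1.70 and 3.61 times, and the HSPA8 peaks have local backgrounds of 2.95 and 2.50 times.

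HSPA5 encodes BiP, the HSP70 protein of the endoplasmic reticulum and a sensor of its folding load. The control peak, chr9:125241099-125241389, was 291 bp wide, with a fold enrichment of 6.59, rank 260 (9.43%) and 57 fragments. The U2AF1 knockdown peak, chr9:125241150-125241433, was 284 bp wide, also with a fold enrichment of 6.59, rank 266 (15.4%) and 26 fragments. The DHX9 knockdown peak, chr9:125241141-125241423, was 283 bp wide, with a fold enrichment of 5.70, rank 1737 (39.1%) and 18 fragments. The widths were nearly equal, and the summits lay 109, 22 and 39 bp after the start. Among the 870 shared genes HSPA5 stood at rank 159, 195 and 609 in the control, U2AF1 and DHX9 lists. Its heights were 11.5, 12.7 and 10.7 times the background. The log2 difference was 0.13 from control to U2AF1 knockdown, where the median over shared peaks was 0.00, and -0.10 from control to DHX9 knockdown, where the median was 0.48 and 6.45% of shared peaks were lower. By rank among the shared genes both HSPA5 and HSP90AA1 stood highest in the control list, and the lowest list was the DHX9 list for HSPA5 and the U2AF1 list for HSP90AA1. A start of HSPA5-DT, a divergent transcript, also lies within 1000 bp of each summit.

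HSPD1 and HSPE1 encode the mitochondrial chaperonin HSP60 and its lid HSP10, and are read in opposite directions from a shared promoter. Only the U2AF1 list had a peak there, chr2:197499689-197499906, 218 bp wide, with a fold enrichment of 4.66, rank 902 (52.1%) and 18 fragments, 8.76 times the background. Its summit lay 23 bp after the nearest start of HSPD1 and at -346 bp from the nearest start of HSPE1, so within the pair it lay on the side of HSPD1. A start of HSPE1-MOB4, a readthrough gene, is also within 1000 bp. Its −log10 q was 4.94, the lowest of any peak at the 10 genes. The same height would be 14.7 fragments in the DHX9 list. Peaks called there on a like local background had at least 10 and a median of 18. The nearest peak in the DHX9 list was 179654 bp from the start of HSPD1. The control list had no peak at the pair either, and no equivalent was worked out for it. Its lowest height called on the genome-wide background was 3.84 times, and the median over all its peaks was 8.29 times.

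DNAJB1 encodes HSP40, the J-protein that works with HSPA1A and HSPA8. Its control peak, chr19:14518198-14518485, was 288 bp wide, with a fold enrichment of 6.79, rank 233 (8.45%) and 63 fragments. Its DHX9 knockdown peak, chr19:14518178-14518459, was 282 bp wide, with a fold enrichment of 8.20, rank 408 (9.18%) and 24 fragments. Both summits were in the coding part of the first exon, 54 and 65 bp after the start, and the heights were 12.7 and 14.3 times the background, a log2 difference of 0.17 where the median over shared peaks was 0.48. In the U2AF1 list the nearest summit was 84178 bp away. A height of 12.7 times would be 26.2 fragments there. The 254 U2AF1 knockdown peaks on a like local background had at least 13 and a median of 20.5. The control list had a second peak for the gene, chr19:14529561-14529857, 297 bp wide, with a fold enrichment of 5.43, rank 545 (19.8%) and 62 fragments, 136 bp after an upstream annotated start. Starts of MIR639 and TECR, an enzyme of fatty acid elongation, lie within 1000 bp of it, so it cannot be assigned to DNAJB1 alone. This second peak was overlapped in neither knockdown list. Its height would be 25.8 fragments in the U2AF1 list, where peaks on a like local background had at least 15 and a median of 23. In the DHX9 list it would be 21.0 fragments, where such peaks had at least 13 and a median of 20. The promoter of DNAJB1 held 2 separate 2-unit heat shock elements, at -77 to -70 and -47 to -40, and HSP90AA1 held a 3-unit element at -88 to -76.

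HSPH1 encodes HSP110, an exchange factor for HSP70. No list had a peak at it, and in all 3 lists the nearest summit was at B3GLCT, 37714 bp away in the control, 37999 bp in the U2AF1 and 37638 bp in the DHX9 list. All 50-base windows within 500 bp of its start occur once in the reference. Its guanine and cytosine content over the 500 bases after the start was 69.6%. A U2AF1 knockdown peak on chromosome 7, at chr7:99817110-99817316 and rank 930, matched the HSPH1 locus at 90.2% identity over 205 bases and was not counted for the gene. The locus was searched with its introns, so the match need not be a copy of the gene.

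**Figure D3:**
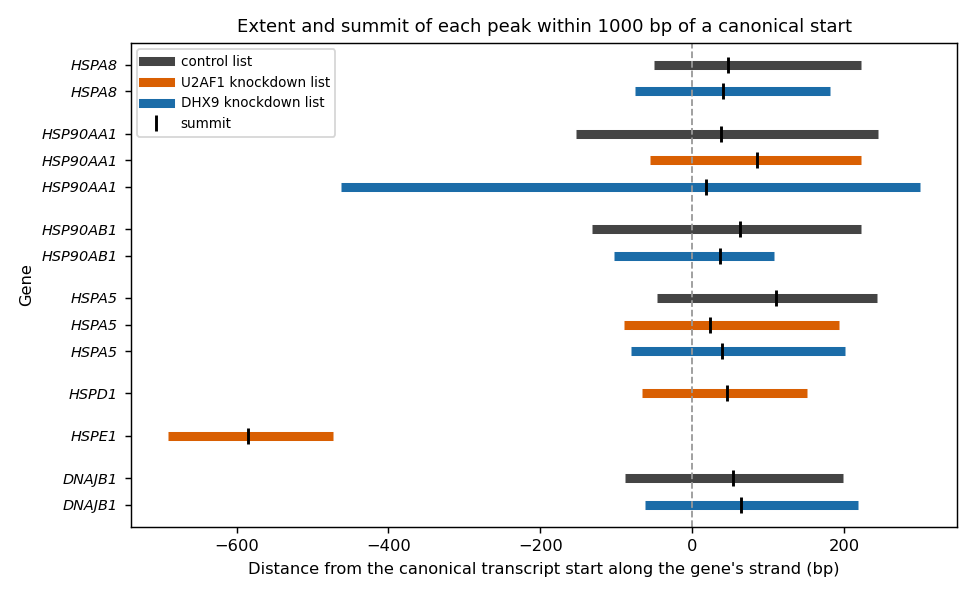
Extent (bars) and summit (black ticks) of each peak within 1000 bp of a canonical start, as distance in bp along the strand of the gene, with the start at 0; grey bars are the control list, orange the U2AF1 list and blue the DHX9 list. Apart from HSPE1, the summits lie between 18 and 110 bp after the canonical start, and the HSP90AA1 peak of the DHX9 list is the widest at 763 bp.

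Apart from HSPE1, the summits at these genes lay just after the nearest start. The median widths were at or below those of all peaks at protein-coding genes. In the control list their median width was 294 bp (273 to 399), against 323 bp for all peaks at protein-coding genes. In the U2AF1 list it was 282 bp (218 to 311), against 282 bp, and in the DHX9 list 282 bp (212 to 763), against 324 bp. The median summit offset by gene was 54, 22.5 and 37 bp after the start in the control, U2AF1 and DHX9 lists, against 18, 28 and 14 bp over all genes with a peak at a start. The median rank percentile was 8.94 in the control list, against 45.2 over all peaks at protein-coding genes, 37.6 against 42.7 in the U2AF1 list and 39.1 against 46.7 in the DHX9 list. By height over the genome-wide background the medians were 11.3, 52.9 and 13.9 among peaks at protein-coding genes. By that measure the peaks of the control and DHX9 lists both stood near the top, and those of the U2AF1 list, which are partly at other genes, stood in the middle.

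HSPA1A and HSPA1B, the strongly inducible HSP70 genes, are near-copies of each other in the major histocompatibility region of chromosome 6. The 250 bases before their starts were 93.6% identical and the first 2000 bases after them 98.6% identical. Of the 50-base windows within 500 bp of either start, 0% occurred once in the 455 sequences of the reference, and the median window occurred 5 times. For HSPA1A 74.4% of windows had their further copies only on alternate versions of the region and 25.6% also on the primary sequences; for HSPA1B the shares were 74.3% and 25.7%. At each of the other 8 starts at least 99.8% of windows were unique. A 50-base read from these starts therefore cannot be placed by its sequence alone, and the lack of a peak on chromosome 6 gives no measure of POLR2A there.

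Of 68 protein-coding genes within 500 kb of HSPA1A, 67 had fewer than 10% unique windows at the start, and 0 had a peak in any list. Among every 50th protein-coding gene, 20 of 401 (4.99%) had so few. Pooling these genes with the neighbours, 85 starts with under 10% unique windows had 0 peaks in each list, while 361 starts with at least 90% had 32, 21 and 74 in the control, U2AF1 and DHX9 lists.

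The control list did hold peaks at copies of HSPA1B on alternate sequences of chromosome 6. HSPA1A and HSPA1B each lie on 4 such sequences, and 3 of the HSPA1B copies had a control peak, each with a sequence 100% identical to the HSPA1B locus of chromosome 6. The peak on GL000250v2, at 3160273-3160578, had 35 fragments, a fold enrichment of 5.83 and rank 409. The peak on GL000252v2, at 3075494-3075718, had 31 fragments, a fold enrichment of 5.18 and rank 647. The peak on GL000255v2, at 3083549-3083795, had 30 fragments, a fold enrichment of 5.02 and rank 730. Their summits lay 55, 49 and 73 bp after the start, within the range of the other genes. Their heights were 7.08, 6.27 and 6.07 times the background. The lowest heights called on the genome-wide background were lower, at 4.87 times in the U2AF1 and 5.37 times in the DHX9 list. Neither knockdown list had a peak at any copy, and which copy the reads came from cannot be told apart.

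**Figure D4:**
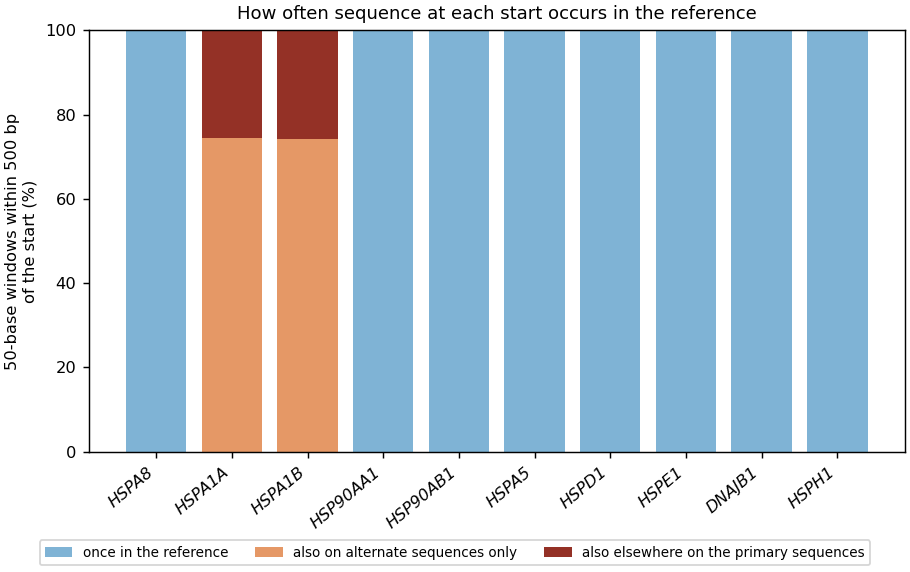
Share of 50-base windows within 500 bp of each start (bars, percent) that occur once in the reference (blue), have further copies only on alternate sequences (orange) or also on the primary sequences (dark red). HSPA1A and HSPA1B have no unique window, and at least 99.8% of windows at the other 8 starts are unique.

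The other genes of the chaperone system were grouped into 8 lists by role. Of 70 genes found, 22 had a peak in the control, 13 in the U2AF1 and 40 in the DHX9 list, 10 in all 3 and 27 in none. Over all protein-coding genes the shares were 13.2%, 7.34% and 22.2%, and the counts of each group, here and below, are to be read beside them. The 11 genes of folding in the endoplasmic reticulum and the unfolded protein response had 8, 5 and 10, all of them in at least 1 list. XBP1, the transcription factor of that response, had rank percentiles of 28.5, 18.9 and 20.6 in the control, U2AF1 and DHX9 lists, and HERPUD1, which acts in degradation from the endoplasmic reticulum, 20.2, 27.3 and 22.7. CALR, a calcium-binding chaperone of glycoproteins, was in the control list alone, at percentile 32.7.

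Of 10 genes of the HSP90 family and its co-chaperones, 5, 2 and 9 had a peak. STIP1, which links HSP70 to HSP90, was in all 3 lists at percentiles 13.5, 19.8 and 14.3, and so was FKBP5, an immunophilin of steroid receptors, at 8.20, 53.4 and 33.0. FKBP4, a related immunophilin, was in the control list at 8.89 and in the DHX9 list at 9.21 but not in the U2AF1 list. Of 14 J-proteins, 3, 4 and 6 had a peak. DNAJB4 was in all 3 lists at percentiles 4.75, 17.0 and 1.89, and DNAJA1 was in the control list at 64.0 and the DHX9 list at 9.95. DNAJB11, the J-protein partner of HSPA5 in the endoplasmic reticulum, stood at percentile 86.2 in the control and 7.11 in the U2AF1 list and was not in the DHX9 list.

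Of the 8 genes of the cytosolic chaperonin TRiC, 2, 0 and 6 had a peak. The control peaks were at CCT7, percentile 38.2, and CCT8, percentile 56.6. Of 10 further HSP70 and HSP110 genes, 1, 0 and 3 had a peak, near the shares over all protein-coding genes, with HSPA12A in the control list at percentile 17.3. Of 6 exchange factor and BAG genes, 1, 0 and 2 had a peak, BAG3 at percentile 20.2 in the control and 66.6 in the DHX9 list. The 4 small heat shock protein genes found, which bind unfolded proteins without ATP, had no peak in any list. Of 7 genes of heat shock regulation, 2, 2 and 4 had a peak, and HSF1, the main activator of heat shock genes, stood at percentiles 28.6, 41.0 and 13.4 in the control, U2AF1 and DHX9 lists.

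For comparison, 52, 19 and 56 of 79 cytosolic ribosomal protein genes had a peak in the control, U2AF1 and DHX9 lists, 17 of them in all 3. Of 22 immediate early genes, which are also induced by stress, 12, 8 and 12 had a peak, 7 in all 3, and JUND stood at percentiles 2.94, 2.89 and 2.34. These lists too held fewer genes with a peak in the U2AF1 list than in the others, as did the genome as a whole. The protein-coding genes whose rank percentiles over the 3 lists were nearest to the medians of HSP90AA1 and HSPA5, each by its highest peak, were INPP4A, BBC3 and TBK1, at distances of 3.70, 4.79 and 5.08 percentile points among 870 genes.

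The sequence after the start was described because the series concerns R-loops, RNA-DNA hybrids that form more readily where the coding strand is rich in guanine over cytosine. Skew is the difference of guanine and cytosine over their sum. Over the 500 bases after the start the 10 genes had a median guanine and cytosine content of 64.8% and a median skew of 0.11, against 63.8% and 0.053 over all 20046 protein-coding genes. HSP90AB1 had the highest skew of the 10, 0.22, above 91.5% of genes. HSPH1, with no peak in any list, had 0.195, above 88.2%, and HSPA8 had 0.16, above 81.5%. HSPE1 had 0.10, above 66.3% of genes, DNAJB1 0.066, above 54.4%, HSPA1B -0.0093 and HSPA1A -0.019. A relation of skew to presence in the lists was not tested. HSPD1 had -0.028, above 25.4% of genes, and HSPA5 0.12. HSP90AA1 had 0.14, above 76.5% of genes, and the highest guanine and cytosine content, 76.6%. No R-loop was measured in the data used here.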

How the data were processed

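POLR2A ChIP-seq peaks of HEK293T cells were used, 1 list per condition. The submitters' processing notes name Bowtie2 2.4.5, MACS2 2.2.7.1, deepTools 3.5.1 and the build hg38, with no settings. How the input entered and whether replicates were pooled is not given in the sources used here. Peak names in the control list end in a number that reads as replicate 1, so it may rest on 1 library or on both.

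The deposited fold enrichment is the authors' ratio at the summit. The deposited significance is −log10 of the p-value and −log10 of the q-value, and the deposited score of a peak, not used for any value, is 10 times the latter in whole numbers. Coordinates count from 1. Genes were taken from GENCODE 44. Overlap needed 1 bp.

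Depth is not given. The height of each peak in fragments, and its local background, were solved from the authors' fold and −log10 p, taking the fold as the pileup plus 1 over the background plus 1 and the p as a Poisson tail. A whole number of fragments reproduced −log10 p within 0.003 for 98.2% of control, 99.7% of U2AF1 knockdown and 99.7% of DHX9 knockdown peaks, the control pileup being scaled by 0.779. The solution was tested on simulated data. The background is the lowest value shared by at least 10 peaks, and a like local background is within 10%. Height ratios between lists assume that background is alike in all conditions.

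Copies were counted as exact 50-base windows over all reference sequences, and peaks were matched to the loci with blastn 2.17.0, at 90% identity over 80% of the peak or more. Python 3.11.15, pysam 0.24.0 and Biopython 1.88 were used.

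The text names all 10 genes and at most the 3 best-ranked control genes of each other chaperone list. It also names the 3 genes nearest in rank and genes starting within 1000 bp of a member's summit. B3GLCT and SLC35B2 as nearest peaks, VIM among the HEK293T markers and JUND, the best-ranked immediate early gene of the control list, were added. A further gene that this rule names is not reported here. The members and lists were chosen with earlier results of these data known. Alternatives were a −log10 q minimum of 5, equal numbers of peaks, start windows of 500 and 2000 bp, starts only, any base of the peak, other rankings, merging, and other definitions of overlap and start. The recovery of heights, the search of alternate sequences and the counts of unique windows at neighbours were added after the data were seen.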

Additional observations from a re-analysis of the deposited data

Results flagged for a closer look

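Peaks at copies of HSPA1B on alternate sequences of chromosome 6 appeared in the control list outside the annotated genes that the comparison used. They had 35, 31 and 30 fragments at the summit on GL000250v2, GL000252v2 and GL000255v2, and 0 peaks lay at these copies in either knockdown list. These control peaks stood at 7.08, 6.27 and 6.07 times the background. The lowest heights called on the genome-wide background were lower, at 4.87 times in the U2AF1 and 5.37 times in the DHX9 list. The local background at these copies in the knockdown lists is not known. A missing peak is a difference between lists and not a measured loss of POLR2A. On alternate sequences of any chromosome there were 34 of 2757 peaks in the control list, 13 of 1730 after U2AF1 knockdown and 31 of 4443 after DHX9 knockdown. The cause of the difference between the lists was not tested.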

How the results depend on the processing

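With a −log10 q of at least 5, 2 of the 10 genes in place of 4 had a peak in the U2AF1 knockdown list (HSP90AA1 and HSPA5), and the shared peak of HSPD1 and HSPE1 was lost; the 5 genes of each other list remained. With every list limited to its 1730 most significant peaks, 3 of the 10 genes in place of 5 had a peak in the DHX9 knockdown list (HSPA8, HSP90AA1 and DNAJB1), 3 in place of 5 control peaks were found there, and 1 in place of 2 U2AF1 knockdown peaks. Measured from canonical starts, the median summit offset in the U2AF1 knockdown list was -281 bp in place of 22.5 bp, because the highest HSP90AA1 peak there lies at an upstream start and the peak of HSPE1 lies before it. Of the other values of counts of genes and of overlapped peaks, 29 stayed within 1.5 times. The median rank percentile ranged from 8.32 to 16.0 in the control, 36.3 to 57.7 in the U2AF1 knockdown and 13.9 to 61.0 in the DHX9 knockdown list over 7 settings each. Counting copies on alternate sequences, added after the data were seen, gave 6 genes with a peak in the control list. No paired analysis was possible because a condition is given as 1 peak list and no list per replicate, and for the same reason no replicate could be left out.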
